A study of Mus musculus with 13 samples.

Results

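The fibroblast growth factor (FGF), platelet-derived growth factor (PDGF) and vascular endothelial growth factor (VEGF) genes were examined in peak lists of the glucocorticoid receptor (GR, the nuclear receptor that binds glucocorticoid hormones). The genes were chosen by symbol: Fgf or Fgfr followed by a number, Pdgfa to Pdgfd, Pdgfra, Pdgfrb and Pdgfrl, Vegfa to Vegfd, Pgf, Kdr, Flt1 and Flt4. Of all mouse genes, 44 matched, and 26 of them were named at a peak, among 8725 genes named in the lists. Of the 44, 41 were counted as ligands or receptors by family name, with the intracellular Fgf11 to Fgf14 and the receptor-like Pdgfrl among them. The other 3 match by their letters alone: Fgfr1op and Fgfr1op2 were named for fusions with Fgfr1, and Fgfr3-ps is a pseudogene.

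The lists come from ChIP-seq (sequencing of chromatin precipitated with an antibody against GR) on primary fibroblasts of mouse embryos. All groups shared the C57BL/6 strain, male embryos of embryonic day 13.5 without head and inner organs, 7 days of culture and 1 antibody against GR. The glucocorticoid drug dexamethasone (Dex) was given at 1 µM for 16 h to every group, so no group shows GR without hormone. With lipopolysaccharide (LPS, from bacterial cell walls, labelled 100 ng/µl for 3 h) added, the series holds 3 GR wild-type (wt / wt), 4 mutant (GR Zn/Zn) and 2 GR knockout libraries. Without LPS it holds 2 of wild type and 2 of the mutant. The Zn/Zn receptor is altered in a zinc finger with which GR binds DNA. The labels do not say whether embryos were pooled or whether libraries came from separate cultures, so p-values measure the spread between libraries, which may be technical. The comparison between genotypes asks at which of these genes the mutant receptor still gave peaks.

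The Dex+LPS data were 3 lists of 200-bp peaks merged by genotype, with peaks of knockout cells removed: 18953 peaks were found in wild type and not the mutant (wild-type-specific), 3533 in both (shared) and 2187 in the mutant alone (mutant-specific). They carry no spread between replicates, and the depth behind them is unknown. The whole wild-type list held 22486 peaks and the mutant list 5720, so the mutant list was the shorter for the genome as a whole. The lists for Dex alone had 412 and 854 peaks in wild type and 53 and 60 in the mutant. Each peak is given at the gene the authors assigned to it, and no expression was measured, so the fibroblast identity of the cells could not be checked by transcript levels. All 9 fibroblast markers examined, such as Col1a1 and Col3a1 and including Pdgfra and Pdgfrb, had a wild-type-specific peak, as had 30.6% of all coding genes. A wild-type-specific peak was also found at 6 of 8 endothelial markers, Kdr and Flt1 among them, and at 3 of 5 markers of pericytes and smooth muscle. None of 6 macrophage markers had a wild-type peak, while Cd68 had 2 mutant-specific peaks and Adgre1 had 1. Mutant-specific peaks were also found at 5 of the 9 fibroblast markers and 3 of the 8 endothelial ones. They were found at 1 of the 5 markers of pericytes and smooth muscle, and at 5.36% of all coding genes.

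FGF, PDGF and VEGF ligands are secreted proteins that bring receptor tyrosine kinases together as dimers, which then signal through the Ras-MAP kinase, PI3 kinase and phospholipase C routes. Fibroblasts respond to FGF and PDGF by dividing and migrating, and they supply VEGF to nearby endothelium, whose receptors control the growth of blood and lymphatic vessels. GR, once bound by hormone, enters the nucleus and occupies mostly distal regulatory elements, directly or through other factors.

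At 3 of these genes a GR peak assigned to the gene lay within 1 kb of the start the authors used, and their promoter sequences are shown for that reason. Each is a RefSeq window on GRCm38.p6 (mm10) from 250 bases before the start to 50 after it, written 5′ to 3′ on the gene's strand. For Vegfa (chr17:46032328-46032627, minus strand) the capitals mark the 94 bases that lie under a shared peak.
Vegfa: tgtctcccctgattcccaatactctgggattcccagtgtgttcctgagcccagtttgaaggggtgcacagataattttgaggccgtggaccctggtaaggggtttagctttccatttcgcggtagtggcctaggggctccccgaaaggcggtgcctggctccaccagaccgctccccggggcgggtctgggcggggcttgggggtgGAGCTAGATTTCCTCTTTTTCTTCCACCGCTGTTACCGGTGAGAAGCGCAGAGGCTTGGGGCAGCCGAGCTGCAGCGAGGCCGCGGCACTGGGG
For Fgf2 (chr3:37348403-37348702, plus strand) and Fgfr1op (chr17:8165268-8165567, plus strand) the capitals mark the 50 bases from the start on, the side on which a wild-type-specific peak follows, 634 bp and 46 bp beyond the window.
Fgf2: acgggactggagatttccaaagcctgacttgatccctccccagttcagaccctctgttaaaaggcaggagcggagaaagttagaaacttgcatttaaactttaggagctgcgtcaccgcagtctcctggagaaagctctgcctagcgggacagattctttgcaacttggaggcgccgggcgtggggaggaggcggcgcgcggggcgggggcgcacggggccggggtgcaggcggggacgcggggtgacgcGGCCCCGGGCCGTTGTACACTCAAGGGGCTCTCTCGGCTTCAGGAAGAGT
Fgfr1op: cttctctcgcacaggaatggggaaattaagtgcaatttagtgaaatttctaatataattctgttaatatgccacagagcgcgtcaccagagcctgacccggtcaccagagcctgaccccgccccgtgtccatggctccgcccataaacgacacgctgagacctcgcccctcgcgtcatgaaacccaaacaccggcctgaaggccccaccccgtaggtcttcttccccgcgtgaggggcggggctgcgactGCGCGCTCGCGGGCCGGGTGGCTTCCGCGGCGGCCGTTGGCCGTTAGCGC
These windows were rich in G and C, with 62.7% in Fgf2, 62.0% in Vegfa and 61.7% in Fgfr1op, beside a median of 63.7% over the 44 windows of the genes examined and 52.7% over all 32851 promoter windows. The hexamer bound by 1 GR molecule (TGTTCT, either strand) and the AP-1 site (TGANTCA, either strand), neither of which contains the other, were absent from all 3.

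Promoter windows were at hand for 33 of the 44 genes, and those of Fgf1, Fgf8, Fgf15, Fgf16, Fgf17, Fgf20, Fgfr1, Fgfr3-ps, Pdgfb, Pdgfrb and Pdgfrl were not analysed here. Fgf1 and Pdgfb have a wild-type-specific peak beside their outermost RefSeq start, described with each gene, which the counts over windows leave out. Vegfa's window was the only one of the 33 with a peak, beside 1.14% of 27025 genes whose window held a shared peak, 3.70% a wild-type-specific and 0.636% a mutant-specific one. Only Fgf13, which encodes an FGF that stays inside the cell, had the hexamer in its window (1 of 33 genes, 3.03%), against 21.3% of all genes. An AP-1 site was found at Fgf12 and Fgf13 (6.06%), against 8.97% of all genes. The full GR element (AGAACA and TGTTCT spaced by 3 bases, which holds the hexamer on both strands) was in none of the 33 and in 0.0111% of all genes, and with up to 1 mismatch in none and in 0.192%. The 27025 genes with a window outnumber the 21887 coding genes, so they are not coding genes alone. The windows of the genes examined were also richer in G and C (medians of 63.7 and 52.7%). The part of either in these motif counts was not tested. The sequences under the distal peaks were not analysed here.

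Wild-type-specific peaks were assigned to 25 of the 44 genes (56.8%; exact 95% interval 41.0 to 71.7%), beside 30.6% of all 21887 protein-coding genes. Shared peaks were assigned to 11 (25.0%; 13.2 to 40.3%), beside 9.37%. Mutant-specific peaks were assigned to 6 (13.6%; 5.17 to 27.4%), beside 5.36%. The share of all coding genes lay below the interval for the first 2 classes and inside it for mutant-specific peaks. These intervals cover counting error only and treat the genes as independent, though some lie side by side. A difference from all coding genes was not tested. The genes examined were also longer, with a median of 29.1 kb against 17.2 kb, and the part of length in these counts was not tested.

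**Figure D1:**
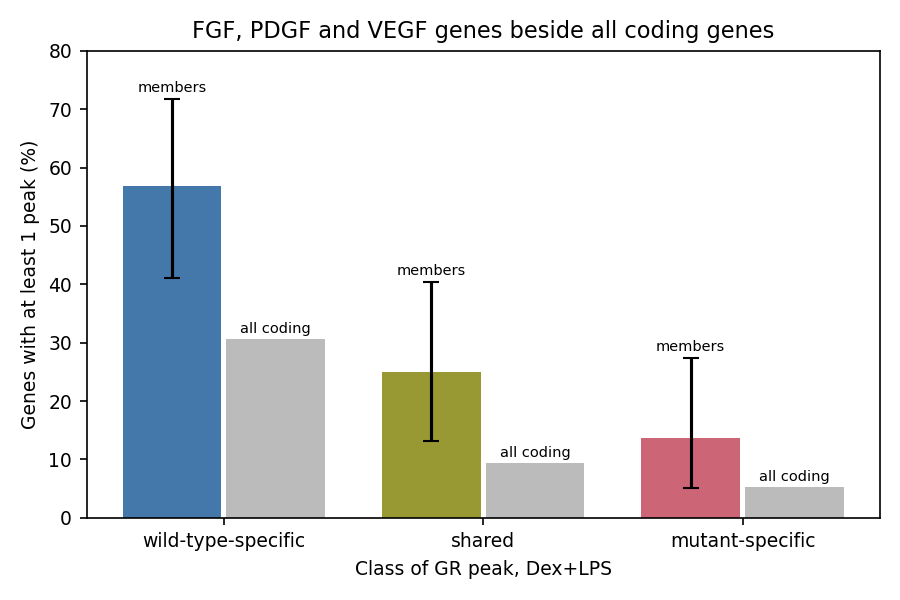
Percent of genes with at least 1 GR peak of each class under Dex+LPS, for the 44 FGF, PDGF and VEGF genes (coloured bars, with exact 95% intervals for counting error) and for all 21887 protein-coding genes (grey bars). The coloured bars stand at 56.8, 25.0 and 13.6% and the grey bars at 30.6, 9.37 and 5.36%.

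The 44 genes held 101 of the 24673 Dex+LPS peaks (0.409%): 76 wild-type-specific, 17 shared and 8 mutant-specific. Of their 93 wild-type peaks, 17 were also in the mutant list (18.3%; 11.0 to 27.6%), beside 15.7% (15.2 to 16.2%) at all other genes. Of their 25 mutant peaks, 17 were also in wild type (68.0%; 46.5 to 85.1%), beside 61.7% at all other genes. Both shares were thus close to the background. Of the 26 genes named at wild-type peaks, 14 were named at no mutant peak (53.8%; 33.4 to 73.4%), beside 66.0% of the 7219 coding genes with a wild-type peak. Each interval held the background value.

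**Figure D2:**
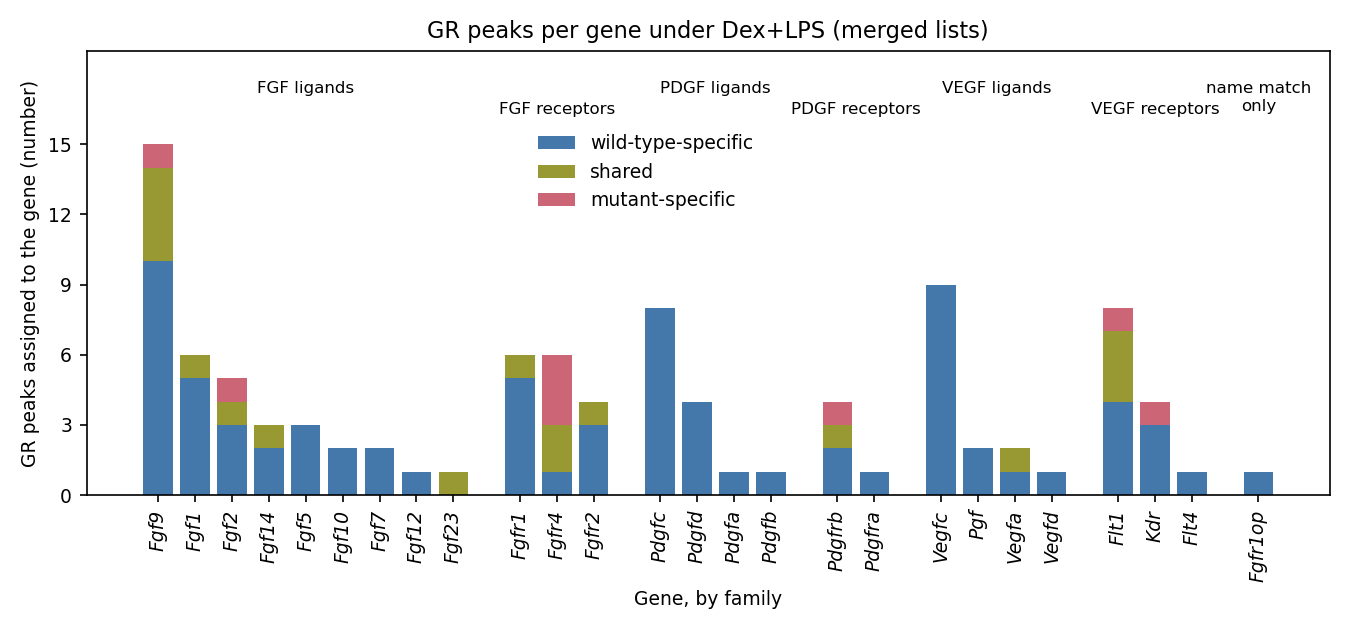
Number of GR peaks under Dex+LPS assigned to each of the 26 genes with any, ordered by family and stacked by class (merged lists, no replicates). Fgf9 had 15 peaks, Vegfc 9, Pdgfc and Flt1 8 each; all peaks of Pdgfc and Vegfc were wild-type-specific, and Fgfr4 had 3 mutant-specific peaks.

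Ligands and receptors were then counted apart. The 31 genes counted as ligands, the intracellular FGFs included, had 55 peaks specific to wild type, 9 shared and 2 specific to the mutant. The 10 receptor genes had 20, 8 and 6. The share of wild-type peaks also found in the mutant was 14.1% (6.64 to 25.0%) at ligands and 28.6% (13.2 to 48.7%) at receptors, and the intervals overlap; the difference was not tested. The mutant list had 11 peaks at the ligands and 14 at the receptors, though the receptors had fewer genes and fewer wild-type peaks (28 against 64). Of those at receptors, 5 were in a run of 4.57 kb at Fgfr4, and of those at ligands, 5 were at Fgf9, so both counts rest partly on 1 gene. The peaks of 1 gene share a neighbourhood, so they are not independent.

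Among the 22 FGF ligands, 9 had a peak: 28 wild-type-specific peaks, 8 shared peaks and 2 mutant-specific peaks in all. Fgf9, a secreted signal between epithelium and mesenchyme, had more peaks than any other gene examined, with 10 wild-type-specific, 4 shared and 1 mutant-specific. All 15 lay downstream of the gene on chromosome 14, from 174 to 535 kb past its start, in a span of 361 kb (58247083 to 58608025) that held no other coding gene. The start nearest to each of them was that of Gm33321, a long noncoding RNA gene, at 27.5 to 307 kb. The 4 shared peaks stood at 174, 256, 302 and 328 kb from the Fgf9 start, and 3 wild-type-specific ones lay among them at 298 to 322 kb. The mutant-specific peak (58411851 to 58412050), at 339 kb, lay 11.6 kb from the nearest wild-type peak. Beyond it, at 374 to 535 kb, stood 7 wild-type-specific peaks without a mutant one.

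Fgf2, the basic FGF that drives fibroblast growth in culture, had 3 wild-type-specific peaks, 1 shared peak and 1 mutant-specific peak, all inside the gene on chromosome 3. A wild-type-specific peak (37349336 to 37349535) was centred 783 bp past the start, and 406 bp from the start of Fgf2os, a neighbouring transcript. The shared peak stood 12.3 kb into the gene and the further wild-type-specific ones at 16.6 and 22.0 kb. The mutant-specific peak (37402143 to 37402342), at 53.6 kb, was 31.4 kb from any wild-type peak and nearer to the start of Nudt6 (17.4 kb), the next gene.

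Fgf1, which binds every FGF receptor, had 5 wild-type-specific peaks and 1 shared one, all 114 to 175 kb from its start on chromosome 18 and inside Arhgap26, a neighbouring gene. Another wild-type-specific peak (38929438 to 38929637) overlapped the RefSeq start of Fgf1 with its centre 67.5 bp upstream, but the authors assigned it to Gm5820, as they did a shared peak 9.95 kb upstream (38939316 to 38939515). Those 2 peaks are not among the 101. Fgf7, a growth factor that mesenchyme makes for epithelium, had 2 wild-type-specific peaks 19.3 and 30.9 kb inside the gene, and a further wild-type-specific peak 3.17 kb upstream of its start was assigned to Fam227b.

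Fgf5, a regulator of the hair cycle, had 3 wild-type-specific peaks, at 26.9 kb upstream and 29.9 and 36.7 kb downstream of its start. Fgf10, a signal for limb and lung budding, had 2 wild-type-specific peaks inside the gene at 22.2 and 75.2 kb. The nearest mutant peak was at least 924 kb from the Fgf5 peaks and at least 330 kb from the Fgf10 peaks. Fgf12 and Fgf14 belong with Fgf11 and Fgf13 to the FGFs that stay in the cell and bind sodium channels. Fgf12 had 1 wild-type-specific peak, 701 kb from its start, and Fgf14 had 2, with a shared peak 248 kb into the gene. Fgf23, a hormone from bone that lowers blood phosphate, was the only gene examined whose single peak was shared. That peak (chr6:127057276-127057475) lay 15.5 kb upstream of Fgf23 and 32.6 kb from the neighbouring Fgf6, which had no peak assigned.

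No Dex+LPS peak was assigned to Fgf3, Fgf4, Fgf6, Fgf8, Fgf11, Fgf13, Fgf15, Fgf16, Fgf17, Fgf18, Fgf20, Fgf21 or Fgf22. They hold the endocrine ligands Fgf15 and Fgf21 and the patterning signals of the early embryo, Fgf3, Fgf4 and Fgf8. Fgf3, Fgf4 and Fgf15 lie side by side on chromosome 7, where the nearest wild-type peak was 69.6, 92.3 and 127 kb away. Fgf18 came closest of this group to a peak, a shared one 15.4 kb from the gene, and Fgf13 on the X chromosome was farthest, at 4362 kb from a wild-type peak. The other genes without a peak were Fgfr3, Pdgfrl, Vegfb, Fgfr1op2 and Fgfr3-ps. Vegfb had a wild-type peak 6.11 kb from the gene that was assigned elsewhere. The 18 genes without a peak were shorter than the 26 with one, with a median of 6.66 kb against 46.6 kb, and the median gap to the nearest wild-type peak was 56.4 kb.

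Of the 4 FGF receptors, Fgfr1, Fgfr2 and Fgfr4 had peaks and Fgfr3 had none. Fgfr4 was the gene with most mutant-specific peaks: 3, with 2 shared and 1 wild-type-specific. These 6 peaks lay in 4567 bp on chromosome 13 (55183532 to 55188098), and their classes followed one another along the chromosome. Going away from Fgfr4, the wild-type-specific peak came first at 30.8 kb from its start, then the shared peaks at 31.9 and 32.9 kb, then the mutant-specific peaks at 33.7, 34.3 and 35.2 kb. The mutant-specific peaks were 576, 1268 and 2102 bp from the nearest wild-type peak. The row stood between Fgfr4 and Nsd1, a histone methyltransferase gene, and was nearer to the start of Nsd1 (21.8 to 26.2 kb) than to that of Fgfr4. Of all 1364 genes with a mutant-specific peak, 171 (12.5%) had 3 or more.

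**Figure D3:**
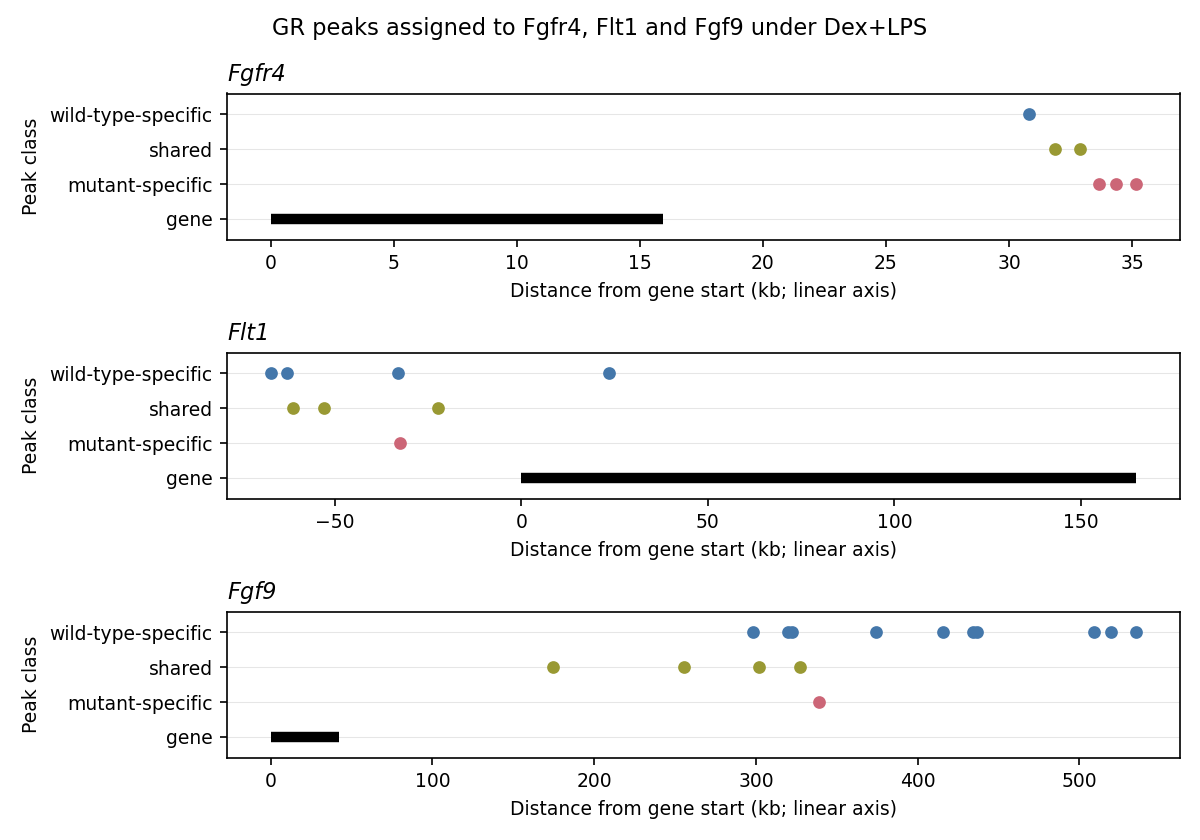
Distance in kb from the gene start to the centre of each GR peak assigned to Fgfr4, Flt1 and Fgf9 under Dex+LPS, in rows by class, with the RefSeq length of the gene as a black bar (a linear axis, different in each panel; positive is downstream). At Fgfr4 the classes follow each other from 30.8 to 35.2 kb, at Flt1 all but 1 of 8 peaks are upstream, and at Fgf9 the row runs from 174 to 535 kb.

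Fgfr1, the FGF receptor of most mesenchymal cells, had 5 wild-type-specific peaks and 1 shared peak on chromosome 8. A pair of wild-type-specific peaks lay just inside the gene, 1785 and 2841 bp past the start (25520445 to 25520644 and 25521500 to 25521699), and a further one at 18.7 kb. The shared peak stood 53.0 kb upstream, beside wild-type-specific peaks at 49.7 and 50.6 kb, so the only mutant peak at Fgfr1 was in the distal group. The start of Fgfr1 was the nearest start for all 6. Fgfr2 had 3 wild-type-specific peaks, 1 of them 4010 bp past the start (chr7:130262698-130262897), and a shared peak 84.0 kb into the gene.

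All 4 PDGF ligand genes had peaks, and all 14 of these peaks were wild-type-specific. A share of 0 of 14 has an exact upper bound of 23.2%, which holds the 15.7% found at other genes, so a difference from the background was not detectable with this number of peaks. Pdgfc had 8 peaks: 5 upstream on chromosome 3 at 4.15, 5.99, 14.4, 18.5 and 26.3 kb, 1 inside the gene at 22.4 kb and 2 at 332 and 341 kb. The closest lay 4148 bp upstream of the start (81032169 to 81032368). Pdgfd had 4 peaks, 165 to 372 kb from its start. Both proteins are secreted in a latent form that is cut to become active. The Pdgfc peaks were 506 to 874 kb, and the Pdgfd peaks 916 to 1026 kb, from any mutant peak.

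Pdgfa and Pdgfb encode the classical PDGF chains, and each had 1 wild-type-specific peak. The Pdgfa peak lay 51.6 kb from the start, beyond the gene, and the nearest mutant peak was 248 kb away. The Pdgfb peak (chr15:80024332-80024531) was 9624 bp upstream of the start used by the authors but 182 bp inside the outermost RefSeq start, so its place depends on the transcript. Its nearest mutant peak was 52.0 kb away.

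Of the PDGF receptors, Pdgfra marks fibroblasts and other mesenchyme, and Pdgfrb marks fibroblasts and the mural cells of vessels. Pdgfra had 1 wild-type-specific peak, 55.7 kb downstream of its start. Pdgfrb had 2 wild-type-specific peaks, 1 shared peak and 1 mutant-specific peak, all inside the gene on chromosome 18. The mutant-specific peak (61047312 to 61047511), 2262 bp past the start, was the Pdgfrb peak closest to the start and the only mutant-specific peak of the 8 within 5 kb of a start. The nearest wild-type peak was 9.69 kb further in, at 12.1 kb, followed by a wild-type-specific peak at 27.0 kb and the shared one at 29.6 kb. Pdgfrl, which encodes a receptor-like protein, had none.

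Of the 5 VEGF ligand genes, 4 had peaks, with 13 wild-type-specific and 1 shared peak. The shared one was at Vegfa, the main signal for the growth of blood vessels: it overlapped the gene start (46032222 to 46032421, centre 55 bp past it) and is the peak capitalised in the promoter shown. A wild-type-specific peak lay 1503 bp past the start (46030775 to 46030974), 1248 bp from the shared one. The mutant list thus held the peak at the Vegfa start and not the one beside it.

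Vegfc, a signal for lymphatic vessels, had 9 peaks, all wild-type-specific. They stood 188 and 109 kb upstream, inside the gene at 33.3, 35.9, 37.2 and 69.1 kb, and downstream at 139, 196 and 198 kb. None was closer than 144 kb to a mutant peak. Pgf, placental growth factor, which binds Flt1, had 2 wild-type-specific peaks 9.28 and 15.4 kb upstream. Vegfd had 1 wild-type-specific peak, 8.79 kb inside the gene.

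The 3 VEGF receptor genes had 8 wild-type-specific peaks, 3 shared peaks and 2 mutant-specific peaks. Their products are best known from endothelium, and GR peaks in a fibroblast culture say nothing of their expression. Flt1, the receptor that also exists as a soluble trap for VEGF, had 4 wild-type-specific peaks, 3 shared peaks and 1 mutant-specific peak on chromosome 5. Of these, 7 lay upstream: the shared peaks at 22.3, 52.7 and 61.1 kb and wild-type-specific ones at 33.1, 62.7 and 67.2 kb. The mutant-specific peak (147758410 to 147758609), at 32.5 kb, was 404 bp from the wild-type-specific peak at 33.1 kb. For the 7 upstream peaks the nearest start was that of Gm35541, a long noncoding RNA gene, at 4.93 to 40.0 kb.

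Kdr, the main signalling receptor for VEGF, had 3 wild-type-specific peaks, 9330 and 12034 bp upstream and 151 kb downstream of its start. Its mutant-specific peak (chr5:76051722-76051921) stood 73.4 kb upstream, 61.2 kb from any wild-type peak and 8.72 kb from the start of Gm32780. Flt4, the receptor for Vegfc and Vegfd, had 1 wild-type-specific peak, 6.88 kb inside the gene. Fgfr1op, which encodes a centrosomal protein, had 1 wild-type-specific peak, 194 bp past its start (8165613 to 8165812).

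**Figure D4:**
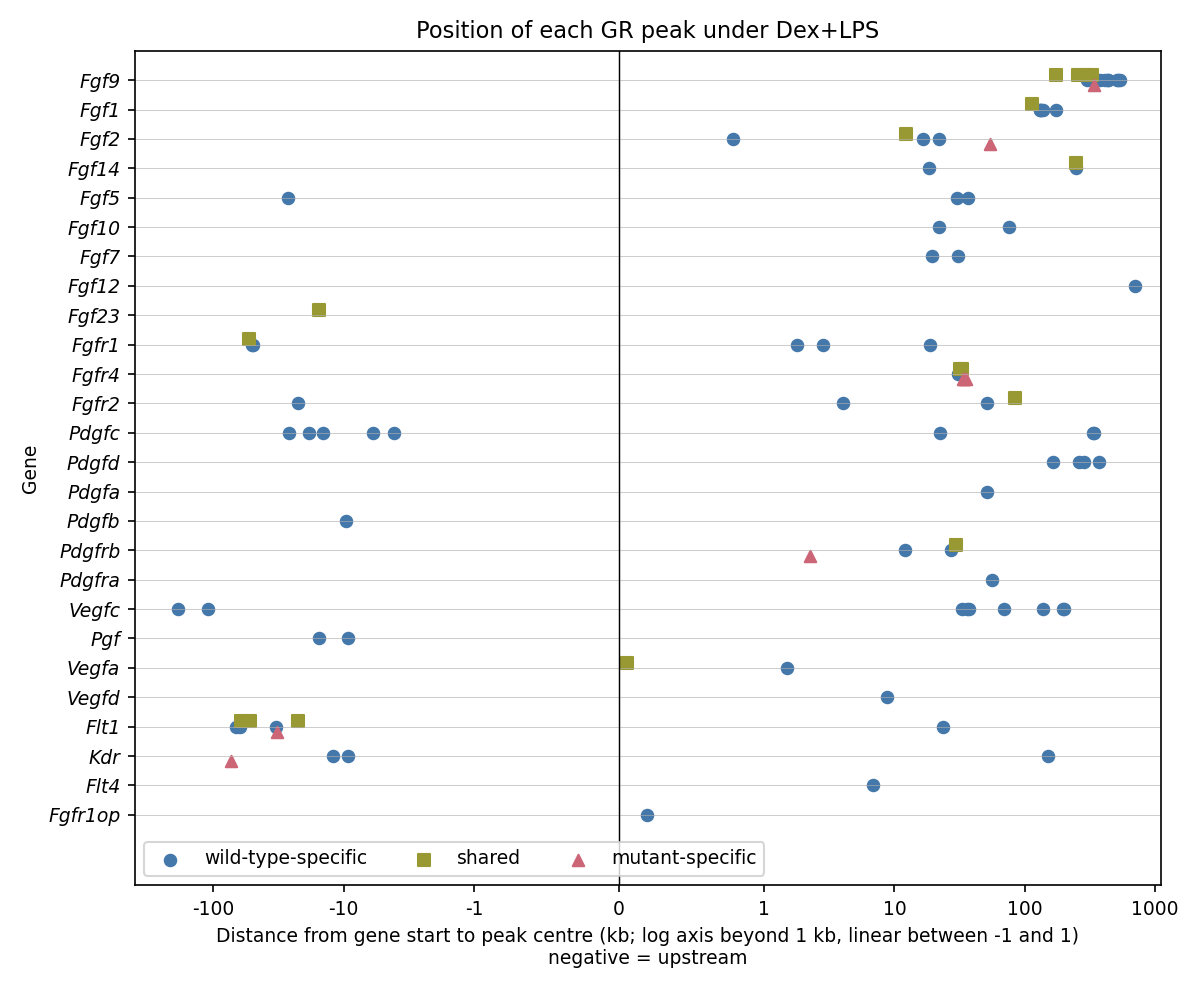
Distance in kb from the gene start to the centre of each of the 101 GR peaks under Dex+LPS, 1 row per gene, coloured by class (log axis beyond 1 kb on either side; negative is upstream). By the starts the authors used, peaks lie within 1 kb at Vegfa, Fgf2 and Fgfr1op, and the 14 peaks of the PDGF ligands are all wild-type-specific.

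Most of the peaks were distal. Within 5 kb of a gene start lay 7 of the 76 wild-type-specific peaks (9.21%; 3.78 to 18.1%), beside 17.1% of all such peaks in the list. For shared peaks it was 1 of 17 (5.88%; 0.149 to 28.7%) beside 22.0%, and for mutant-specific peaks 1 of 8 (12.5%; 0.316 to 52.7%) beside 28.9%. Inside the assigned gene were 35.5% of the wild-type-specific peaks, 23.5% of the shared and 25.0% of the mutant-specific ones, beside 47.6, 44.1 and 46.7% in the full lists. In the same order, the median distances to the start were 43.5, 53.0 and 34.8 kb, against 42.3, 37.2 and 20.8 kb. The start of the assigned gene was also the nearest start for 47.4% (35.8 to 59.2%) of the wild-type-specific peaks. It was the nearest for 35.3% (14.2 to 61.7%) of the shared and 12.5% (0.316 to 52.7%) of the mutant-specific ones. The full lists gave 58.5, 59.2 and 63.3%. Nearest starts were sought among those of the promoter windows and those the authors used, which lack the outermost RefSeq start of Pdgfb. For 7 of the 8 mutant-specific peaks, another gene's start was therefore nearer, and 3 of these 7 were neighbours in the row at Fgfr4. The exception was the one at Pdgfrb.

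The 8 mutant-specific peaks were set against the nearest wild-type peak. At Flt1 and at Fgfr4 1 peak each lay within 1 kb of one (2 of 8, 25.0%; 3.19 to 65.1%), beside 19.4% of all mutant-specific peaks, and 5 of 8 (62.5%) lay within 10 kb, beside 54.0%. The median gap was 5.89 kb, beside 7.55 kb. The farthest were those of Kdr and Fgf2. Of the 76 wild-type-specific peaks, 2 (2.63%) lay within 1 kb of a mutant peak, beside 3.81%, and the median gap was 125 kb, beside 107 kb. These gaps were close to those of the full lists.

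With Dex alone, peaks were assigned to 2 of the 44 genes in 1 wild-type library (replicate 2; 4.55%, 0.555 to 15.5%), beside 1.86% of coding genes. The other wild-type library had none, beside 1.09%, and neither had the mutant libraries, beside 0.142 and 0.183%. The number of peaks was 0 and 3 in the wild-type libraries and 0 and 0 in the mutant ones, a mean of 1.5 ± 2.12 (SD, n = 2) against 0. The difference was smaller than the SD of the wild-type pair. An exact permutation test (two-sided) gave p = 1. With peaks in only 1 library, every relabelling gives the same absolute difference, so this p was fixed and decides nothing. The smallest p that 2 against 2 libraries allow is 0.333, which these counts could not reach. The mutant libraries had few peaks for any gene, so a difference at these genes was not detectable at this number of peaks.

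All 3 Dex peaks were on chromosome 14. The one at Fgf14 (124428481 to 124428804) overlapped the shared Dex+LPS peak there by 36 bp, 18% of the shorter peak. Those at Fgf9 stood beside Dex+LPS peaks without touching them: 1 (58328790 to 58329076) was 380 bp from a shared peak and 1 (58591124 to 58591375) was 764 bp from a wild-type-specific one. Across the genome, 25.2 and 23.2% of the wild-type Dex peaks overlapped a Dex+LPS peak by at least 1 bp. Chromosomes 10 to 14 held 68.2 and 73.9% of the wild-type Dex peaks, and 26.4 and 31.7% of the mutant ones. The part of this concentration in the result was not tested.

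Beyond ligands and receptors, 51 genes of the same signalling routes were examined, a list chosen with earlier results of these data known. Wild-type-specific peaks were assigned to 34 of them (66.7%), shared peaks to 15 (29.4%) and mutant-specific peaks to 6 (11.8%), beside 30.6, 9.37 and 5.36% of all coding genes, and 13 had no Dex+LPS peak. The part of this choice and of gene length in these counts was not tested. The counts of the groups below stand against the same background. Their peaks numbered 142, 30 and 12 in these classes, and 17.4% (12.1 to 24.0%) of their wild-type peaks were shared, beside the 18.3% at the 44 genes. All 11 feedback inhibitors and nuclear targets had a peak: 10 a wild-type-specific and 5 a shared one. Dusp6, the phosphatase that switches off ERK, had 9 wild-type-specific and 5 shared peaks, the nearest 151 bp from its start. Spry2, an inhibitor of receptor tyrosine kinase signalling, had 6 and 3, and Spred2, of the same kind, 8 and 1. Spred1 had 1 shared and 1 mutant-specific peak.

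Of the 18 coreceptors and modulators, wild-type-specific peaks were found at 12, shared peaks at 6 and mutant-specific peaks at 3. Flrt2, a membrane protein of a family that binds FGF receptors, had 23 wild-type-specific peaks, 7 shared peaks and 4 mutant-specific peaks under Dex+LPS, and 5 and 4 peaks in the wild-type Dex libraries. Nrp2, a coreceptor for VEGF, had as many mutant-specific as wild-type-specific peaks (4 each) and 1 shared, with the nearest peak 103 bp from its start. Hs6st1, which sulfates the heparan chains that FGFs bind, had 11 wild-type-specific and 1 mutant-specific. Among 14 adaptors, 8 had a wild-type-specific peak, and Frs2 and Shc1, adaptors of receptor tyrosine kinases, each had a single peak, which was mutant-specific. Pik3r1, the regulatory subunit of PI3 kinase, had 10 wild-type-specific and 1 shared. Of the 8 angiogenic partners, wild-type-specific peaks were found at 4, shared peaks at 2 and mutant-specific peaks at none, and Angpt1, a ligand of the receptor Tek, had 9, all wild-type-specific.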

How the data were processed

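GR ChIP-seq peaks of 13 libraries were used. Per the labels, cells were fixed with DSG and formaldehyde; mm10, MACS2 2.1.0, BWA 0.7.13 and Picard 1.119 appear in the submitters' processing notes, without a role. The values the authors deposited are peak positions, widths, gene names and distances in bp, with no count, score or height. Per the file names, Dex+LPS peaks were merged by genotype, peaks of knockout cells were removed, and the rest was divided into peaks of wild type only, of both genotypes and of the mutant only; Dex libraries had 1 list each. Reads behind the lists were not used here, so depth is unknown, and a list from more reads can be longer for that reason.

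Each peak was kept at the gene and distance of the authors' annotation (1-based, mm10). Of 8725 gene identifiers, 8717 (99.9%) matched the RefSeq gene table (GRCm38.p6), which also gave biotypes and lengths; Fgfr1op is Cep43 there. Promoter sequences are those of RefSeq (33 of 44 genes matched). Overlaps needed at least 1 bp, and gaps were tested on 500 simulated intervals, with all 500 equal to an exhaustive search. Intervals are exact (Clopper-Pearson, 95%) and cover counting error only. An exact permutation test (two-sided) compared the Dex libraries. Alternatives covered the assignment of peaks to genes, distance limits, overlap, chromosomes and left-out libraries.

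All genes were accounted for. Positions were given for genes with a peak within 5 kb of the start, a mutant-specific peak, a Dex peak or most peaks; others were added after their values were seen. Pathway genes were named if they had a mutant-specific peak or were among the 5 with most wild-type peaks (ties included). The genes and lists were chosen with earlier results of these data known. Computation used matplotlib 3.10.9, scipy 1.17.1, pandas 2.3.3 and numpy 2.4.6 under Python 3.11.15.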

Additional observations from a re-analysis of the deposited data

How the results depend on the processing

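The number of genes with a peak (25 for wild-type-specific, 11 for shared, 6 for mutant-specific) depended on how a peak is tied to a gene. Counting only peaks within the gene body gave 16, 5 and 2, and counting only peaks within 10 kb gave 11, 1 and 1. The share of all coding genes was given only for the authors' assignment, so these and the next counts of genes stand without a background. Whether the difference from all coding genes holds under these rules was not tested. By the nearest start among the promoter windows and the authors' starts there were 7 genes with a shared and 1 with a mutant-specific peak. The 19 with a wild-type-specific peak were within 1.5 times. Limits of 100 kb, leaving out chromosomes 10 to 14 and keeping only ligands and receptors changed none of the 3 counts by more than 1.5 times. The share of wild-type peaks that were shared ranged from 14.7% (without chromosomes 10 to 14) to 20.4% (wild-type-specific peaks within 1 kb of a mutant peak counted as shared, chosen after seeing the data, beside 18.9% elsewhere). Without Fgf9 it was 16.5%.

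The share of peaks near the start was 2.63% within 1 kb and 61.8% within 100 kb for wild-type-specific peaks, 64.7% within 100 kb for shared, and 0% within 1 kb and 87.5% within 100 kb for mutant-specific ones. The Dex difference of 1.5 peaks ranged from 0 to 3 when 1 library was left out, 0 without wild-type replicate 2, and was 0 within 100 kb and 0 without chromosomes 10 to 14. With the replicate block, pairing libraries by number, it was 1.5 (exact permutation p = 1, again fixed because only 1 library had peaks). The 2 pairs are too few to tell whether numbers pair the libraries. The single overlap of a Dex peak with a Dex+LPS peak fell to 0 when 50% of the shorter peak had to overlap. Of the values of single genes, 53 stayed the same and 51 moved, 21 of them with the limit of 10 kb. Fgf9 went from 15 peaks to 0 by the nearest start, by the gene body and within 100 or 10 kb. Its rank as the gene with most peaks thus holds only for the authors' assignment. Fgfr4 went from 6 to 0 by the nearest start and by the gene body, and kept 6 within 100 kb. The lists hold no peak heights or reads, and so no depth.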
